A study of Mus musculus with 8 samples.

Results

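Aminoacyl-tRNA synthetases are the enzymes that join each amino acid to its transfer RNA. The genes were taken from the files by symbol: every symbol of 1 capital letter followed by "ars" and at most 1 digit, together with Farsa, Farsb, Eprs, Tarsl2, Aimp1 and Aimp2. This gave 40 of the 17276 genes listed, of which 21 encode cytosolic enzymes, 17 encode mitochondrial enzymes (symbols ending in 2) and 2, Aimp1 and Aimp2, encode accessory proteins. The study measured messenger RNA in hepatocytes of wild-type (labelled WT) male C57BL/6N mice aged between 6 and 8 weeks. Cells of the control group were kept static, and cells of the other group were exposed to shear stress, the drag of a moving fluid along a cell surface. Each group had 4 libraries, read on the DNBSEQ platform. No other agent, allele or treatment is labelled, nor how strong the stress was or how long it lasted. Separate animals or cultures are not named for the 4 libraries of a group, so p-values here reflect only how far these samples spread, and that spread may be technical.

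Each cytosolic enzyme serves protein synthesis on cytosolic ribosomes, and a separate nuclear-encoded set is imported into mitochondria to charge the tRNAs of the mitochondrial genome. Several cytosolic enzymes are held together with the scaffold proteins Aimp1, Aimp2 and Eef1e1 (also called AIMP3) in the multisynthetase complex, and the others work outside it. Synthetases fall into class I and class II, which have unrelated catalytic folds, and transcription of many cytosolic members is known to be raised by ATF4, the transcription factor of the amino acid response. Gars and Kars make both the cytosolic and the mitochondrial enzyme from 1 gene, and Eprs encodes glutamate and proline activities in 1 protein. They are counted here with the cytosolic enzymes. Mitochondria have no glutamine enzyme of their own in this set, since mitochondrial glutaminyl-tRNA is made by amidation of glutamyl-tRNA.

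Estimated counts summed to 15067056 to 17935566 per static library and 16225843 to 16732203 per library under shear stress. The 40 genes took 0.321% to 0.366% of all counts in the static group and 0.378% to 0.406% under shear stress. Hepatocyte marker transcripts were abundant in every library by summed TPM, a level corrected for gene length and library size. The sum was 63700 to 76900 TPM in static and 50200 to 67200 TPM in shear stress libraries. Of the 12 tested, 8 were called lower under shear stress and 0 higher, by the rule given below. By that rule 48.6% of all tested genes were called, 24.9% higher and 23.7% lower. The count of lower hepatocyte markers depended on the scaling: it was 3 with library totals and 4 with upper quartile factors or FPKM. Under these settings 13.1%, 16.9% and 12.8% of tested genes were lower, in that order. Adding the replicate block left the scaling as it was and gave 11, where 30.1% of all tested genes were higher and 31.0% lower. Summed cholangiocyte markers ranged from 100 to 1320 TPM in static and from 263 to 1970 TPM in shear stress libraries (4 of 8 tested, 1 higher and 0 lower), macrophage markers from 27.6 to 68.9 and from 25.4 to 79.2 TPM (1 of 11 tested, 0 called), endothelial markers from 5.61 to 12.2 and from 5.23 to 18.6 TPM (8 of 10 tested, 1 higher and 1 lower) and stellate cell markers from 2.04 to 6.9 and from 2.59 to 4.29 TPM (2 of 10 tested, 0 called). With the replicate block 3 cholangiocyte markers were higher and 1 stellate cell marker was lower. The macrophage markers Clec4f, Timd4, Marco and C1qa and the stellate cell markers Lrat and Ngfr had at most 3 counts in each library. Lymphocyte markers summed to 11.4 to 15.6 TPM in the static group and 0.17 to 1.28 TPM under shear stress, and both tested members, Cd79a and Cd79b, were lower. The part of these other cell types in the results below was not tested. In bulk RNA, fewer cells of a type and less RNA per cell cannot be told apart.

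The comparison asks which synthetase transcripts differ between hepatocytes under shear stress and those kept static. Expression is given as normalised CPM (counts scaled to a common library size with the trimmed-mean, TMM, factors of edgeR). A gene is called where the edgeR quasi-likelihood test gave a Benjamini-Hochberg adjusted p under 0.05 over all 11747 tested genes, which included all 40 members. By this rule 48.6% of tested genes were called, 24.9% higher and 23.7% lower under shear stress. Of the 21 cytosolic enzymes 3 rose (Wars, Lars and Rars), 3 fell (Nars, Vars and Qars) and 15 were not called, so 28.6% were called, a smaller share than over all genes. Of the 17 mitochondrial enzymes 6 rose (among them Rars2, Ears2, Pars2, Mars2 and Tars2), 2 fell (Fars2 and Cars2) and 9 were not called, so 47.1% were called, close to the share over all genes. Without shear stress replicate 4 only 1 cytosolic enzyme, Nars, was lower, and 1 mitochondrial enzyme was lower without static replicate 1 or 2 or any 1 of the shear stress libraries.

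The median log2 fold change of shear stress over static was -0.03 for the cytosolic and 0.23 for the mitochondrial enzymes, beside -0.01 for all tested genes. These directions depend on the scaling: with library totals in place of TMM the median of all genes moved to 0.22, that of the cytosolic enzymes to 0.20 and that of the mitochondrial enzymes to 0.46, while the distance from the median of all genes stayed at -0.02 and 0.24. With library totals 7 cytosolic and 10 mitochondrial enzymes were higher and 0 lower, where 48.5% of all genes were called, 35.4% higher and 13.1% lower. Upper quartile factors, with 48.0% of all genes called (31.1% higher and 16.9% lower), gave 4 cytosolic enzymes higher and 1 lower and 8 mitochondrial enzymes higher and 0 lower. The deposited FPKM, tested with limma, called 48.4% of genes (35.6% higher and 12.8% lower) and gave the same counts of enzymes as library totals. DESeq2 called 45.0% of the 14440 genes to which it gave an adjusted p (22.0% higher and 23.0% lower). Among the 11747 genes tested by edgeR it called 50.8%, and its counts of enzymes were the same as those of edgeR. With the replicate number as a block 61.1% of genes were called (30.1% higher and 31.0% lower), with 3 cytosolic enzymes higher and 4 lower and 7 mitochondrial enzymes higher and 2 lower.

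The mitochondrial enzymes were also less abundant, and the share of higher genes differed with abundance over all tested genes. Among the 8366 tested genes within the mitochondrial enzymes' range of mean CPM (2.77 to 101) 49.4% were called, 27.6% higher and 21.8% lower, with a median of 0.04. Among the 7005 genes in the range of the cytosolic enzymes (14.4 to 476) 49.0% were called, 20.3% higher and 28.7% lower, with a median of -0.09.

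**Figure D1:**
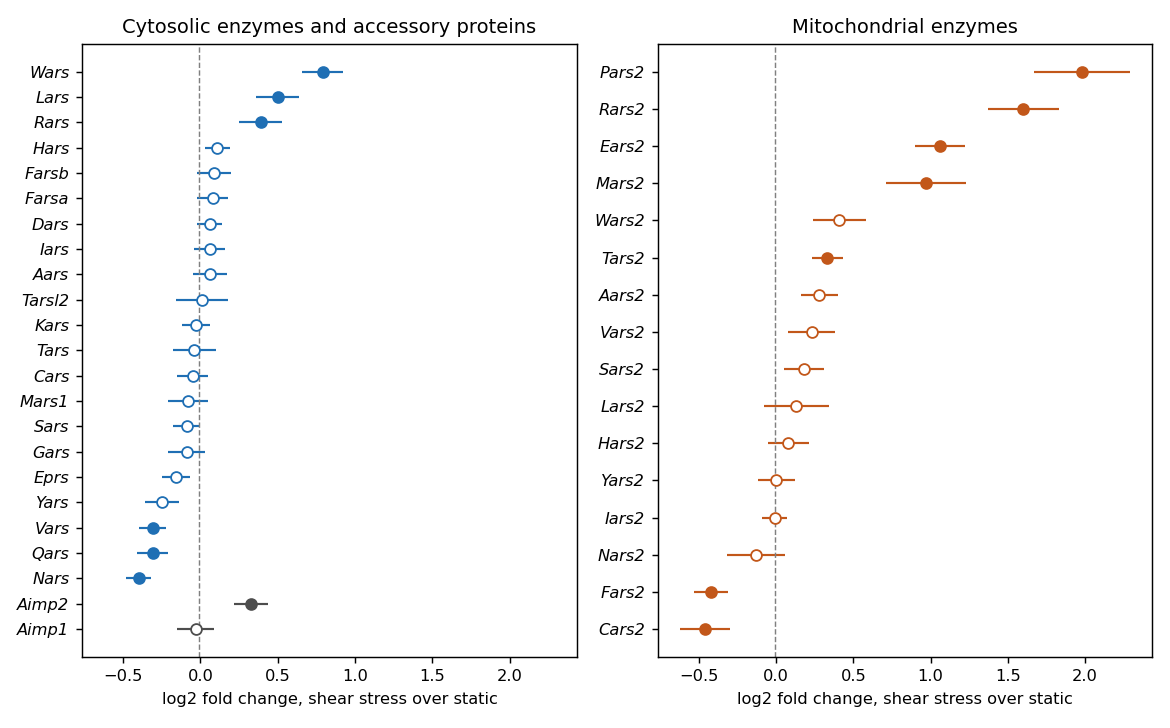
Log2 fold change of shear stress over static (x axis, bars show the standard error, 4 libraries per group) for the 21 cytosolic enzymes in blue and 2 accessory proteins in grey (left) and 16 of the 17 mitochondrial enzymes in orange (right), with filled points for called genes. Cytosolic values run from -0.40 (Nars) to 0.79 (Wars) and mitochondrial values from -0.46 (Cars2) to 1.98 (Pars2), under TMM scaling; with library totals every plotted value sits higher and no member is called lower.

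Wars, the tryptophan enzyme of the cytosol and also known as an interferon-induced gene, showed the greatest rise among the cytosolic enzymes. The gene (Entrez 22375) lies at chr12:108860030-108894175 (GRCm38, exons and introns together, as for all positions here). Wars stood at 25.4, 25.5, 32.4 and 30.6 CPM in static replicates 1 to 4 and at 55.8, 50.6, 41.1 and 48.9 CPM in shear stress replicates 1 to 4. Every shear stress library lay above every static library. Its mean went from 28.5 ± 3.57 to 49.1 ± 6.09 CPM (SD, n = 4), a log2 fold change of 0.79 ± 0.13 (SE) or 1.73-fold (adjusted p = 0.00102). The annotated span of Wars overlaps that of Wdr25, on the other strand, over 544 bases, and Wdr25 was itself higher, from 1.97 to 4.6 CPM, but far below the level of Wars. Whether counting used the strand is not given in the sources used here.

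Lars (Entrez 107045, chr18:42202298-42262237), the leucine enzyme, which has also been described as a leucine sensor upstream of mTORC1, rose as well. Its static libraries held 95.3, 76.3, 56.6 and 87.5 CPM and its shear stress libraries 115, 111, 110 and 111 CPM. The groups did not overlap, and the static values were the more scattered. The log2 fold change was 0.50 ± 0.14, or 1.41-fold (adjusted p = 0.0178). Rars (Entrez 104458, chr11:35808381-35834528), the cytosolic arginine enzyme, held 164, 132, 110 and 145 CPM in the static libraries and 193, 165, 158 and 204 CPM in those under shear stress. The groups overlapped, since static replicate 1 lay above shear stress replicate 3. The log2 fold change of Rars was 0.39 ± 0.14 (adjusted p = 0.0411), and it was not called when static replicate 2, 3 or 4 or when replicate 1 or 4 under shear stress was left out (adjusted p between 0.0604 and 0.111).

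Nars, the asparagine enzyme, had the highest mean TPM of all the synthetases and fell. Nars (Entrez 70223, chr18:64499655-64516515) stood at 527, 597, 505 and 536 CPM in the static libraries and at 405, 408, 402 and 430 CPM in those under shear stress. The groups did not overlap. The mean went from 541 ± 39.4 to 411 ± 12.8 CPM (SD, n = 4), a log2 fold change of -0.40 ± 0.08, or 1.32-fold lower (adjusted p = 0.00419). With library totals the value was -0.17 and Nars was not called (adjusted p = 0.189).

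Vars and Qars, the valine and glutamine enzymes, also fell. Vars (Entrez 22321, chr17:35000907-35016329) held 166, 140, 174 and 156 CPM in the static libraries and 138, 127, 128 and 120 CPM in those under shear stress, with no overlap between the groups (log2 fold change -0.31 ± 0.09, adjusted p = 0.0208). Qars (Entrez 97541, chr9:108508005-108515941) held 130, 142, 113 and 137 CPM in the static libraries and 106, 116, 95.5 and 103 CPM in those under shear stress. Its groups overlapped, with static replicate 3 below shear stress replicate 2 (log2 fold change -0.31 ± 0.10, adjusted p = 0.0268). Neither was called with library totals (adjusted p = 0.496 and 0.579) or with upper quartile factors (0.155 and 0.203). Vars was not called without shear stress replicate 4 (adjusted p = 0.0689), nor Qars when static replicate 2 or 4 or when replicate 1, 3 or 4 under shear stress was left out (between 0.0587 and 0.0743).

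The 15 cytosolic enzymes that were not called had log2 fold changes from -0.25 (Yars, the tyrosine enzyme) to 0.11 (Hars, the histidine enzyme), 7 of them above 0, with standard errors between 0.08 and 0.17 and adjusted p between 0.0799 and 0.953. Eprs was the only one of these 15 whose groups did not overlap, at 201 ± 15.2 CPM in the static group and 181 ± 9.79 CPM in the shear stress group (SD, n = 4; adjusted p = 0.166). Its log2 fold change of -0.16 turned to 0.07 with library totals, as did those of Cars (0.17), Kars (0.20), Mars1 (0.15), Sars (0.14) and Tars (0.18). With the replicate block Yars was called lower (adjusted p = 0.0253). Yars overlaps C77080 on the other strand over 30 bases, and the more abundant C77080 was lower, from 406 to 177 CPM (log2 fold change -1.2 ± 0.18). Gars, the glycine enzyme of both compartments and the most abundant of the 15 by TPM (Entrez 353172, chr6:55038001-55079504), stood at 421, 304, 377 and 416 CPM in the static libraries and at 369, 311, 356 and 388 CPM in those under shear stress. Its groups overlapped throughout, and its log2 fold change of -0.09 ± 0.12 (adjusted p = 0.556) turned to 0.13 with library totals. Tarsl2, the second cytosolic threonine enzyme and the least abundant cytosolic member, held 14.4 ± 3.53 CPM in the static group and 14.5 ± 0.602 CPM in the shear stress group (SD, n = 4).

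The 8 enzymes of the multisynthetase complex had a median log2 fold change of 0.02, with 2 higher (Lars and Rars) and 1 lower (Qars). The 13 cytosolic enzymes outside the complex had a median of -0.04, with 1 higher (Wars) and 2 lower (Nars and Vars). The shares called were 37.5% inside and 23.1% outside the complex, beside 48.6% of all tested genes (24.9% higher and 23.7% lower). Of the 9 cytosolic enzymes of class I, 5 were called (55.6%, near the share of all tested genes), 3 higher and 2 lower. Nars was the 1 called of the 11 of class II (9.09%), and Eprs belongs to both classes. Among the mitochondrial enzymes both classes held called genes, 4 of 9 in class I and 4 of 8 in class II. The differences between these subgroups were not tested. With library totals 4 cytosolic members of class I and 3 of class II were higher, where 35.4% of all tested genes were higher and 13.1% lower.

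Of the 2 accessory proteins of the complex, Aimp2 was called higher and Aimp1 was not called; the difference between them was not tested. Aimp1 (Entrez 13722, chr3:132660498-132684390), a scaffold that is also secreted as a cytokine precursor, stood at 57.1, 46.0, 44.6 and 53.0 CPM in the static libraries and at 55.7, 47.6, 42.6 and 50.7 CPM in those under shear stress. These values overlapped fully and same-numbered libraries lay close together. Its log2 fold change was -0.03 ± 0.12 (adjusted p = 0.85), and it turned to 0.19 with library totals. Aimp1 overlaps Tbck on the other strand over 227 bases, and Tbck was higher, from 3.24 to 8.4 CPM. Aimp2 (Entrez 231872, chr5:143902704-143909839), the core scaffold of the complex, stood at 33.6, 43.0, 43.4 and 38.6 CPM in the static libraries and at 44.7, 54.0, 50.3 and 50.6 CPM in those under shear stress. The groups did not overlap, although static replicate 3 came within a small step of shear stress replicate 1. The log2 fold change of Aimp2 was 0.33 ± 0.11 (adjusted p = 0.0322), lost when static replicate 1 or 4 or when replicate 2, 3 or 4 under shear stress was left out (adjusted p between 0.0612 and 0.0847). Aimp2 overlaps Eif2ak1 on the other strand over 1548 bases, and Eif2ak1 was not called (log2 fold change -0.09 ± 0.08).

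Eef1e1, the third scaffold and no synthetase itself, rose, with a fold change above those of the 21 cytosolic enzymes. It held 12.0, 15.2, 9.1 and 11.5 CPM in the static libraries and 26.8, 27.6, 33.2 and 32.5 CPM in those under shear stress. All shear stress libraries lay well above the static ones. The log2 fold change was 1.32 ± 0.16, or 2.5-fold (adjusted p = 0.000249). Log2 fold changes of the enzymes and scaffolds of the complex ranged from -0.31 (Qars) to 1.32 (Eef1e1).

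**Figure D2:**
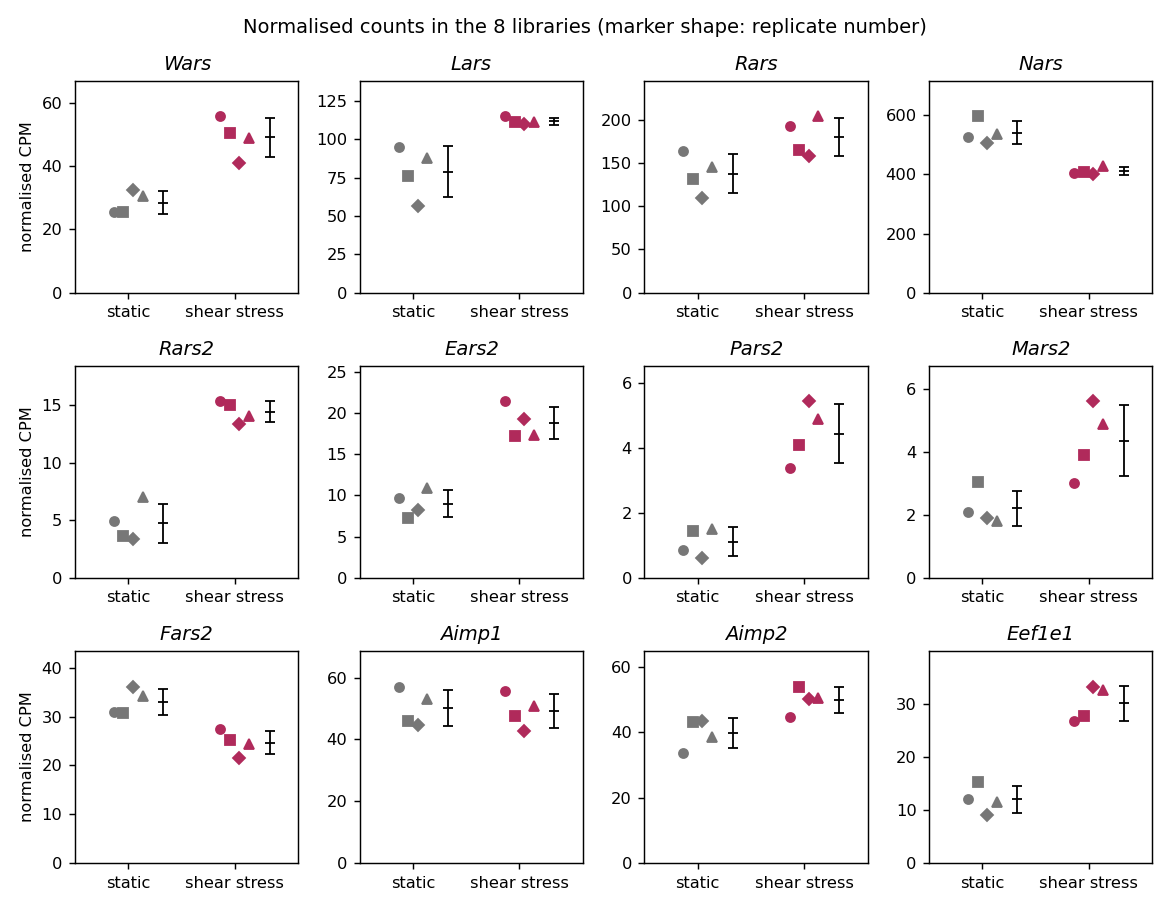
Normalised CPM (y axis, each panel with its own scale from 0) in the 8 libraries for 11 members and Eef1e1, with marker shape for the replicate number and bars for the mean and SD of 4 libraries. The groups do not overlap for Wars, Lars, Nars, Rars2, Ears2, Pars2, Fars2, Aimp2 or Eef1e1, and they overlap for Rars, Mars2 and Aimp1.

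Normalised CPM did not overlap between the groups for 8 members that were higher and 5 that were lower under shear stress, and overlapped for 27. Over all tested genes 45.3% did not overlap. By class, 5 of 21 cytosolic and 7 of 17 mitochondrial enzymes did not overlap.

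Among the mitochondrial enzymes 3 rose by more than 2-fold: Pars2, Rars2 and Ears2. Rars2 (Entrez 109093, chr4:34614957-34660167), the mitochondrial arginine enzyme, stood at 4.93, 3.61, 3.34 and 7.02 CPM in the static libraries and at 15.3, 15, 13.3 and 14.0 CPM in those under shear stress. The shear stress libraries lay close together and far above the static ones. The mean went from 4.72 ± 1.68 to 14.4 ± 0.932 CPM (SD, n = 4), a log2 fold change of 1.6 ± 0.23, or 3.04-fold (adjusted p = 0.000508).

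Ears2 (Entrez 67417, chr7:122034162-122067094), which loads glutamate and also makes the precursor of mitochondrial glutaminyl-tRNA, stood at 9.67, 7.27, 8.19 and 10.9 CPM in the static libraries and at 21.4, 17.2, 19.3 and 17.3 CPM in those under shear stress. The groups were well apart, with a log2 fold change of 1.06 ± 0.16, or 2.08-fold (adjusted p = 0.000601). Ears2 overlaps Ubfd1 on the other strand over 89 bases, and Ubfd1 was lower (log2 fold change -0.40 ± 0.10). Pars2 (Entrez 230577, chr4:106651069-106655282), the mitochondrial proline enzyme, had the lowest mean level of all members. It stood at 0.863, 1.45, 0.606 and 1.5 CPM in the static libraries and at 3.36, 4.07, 5.42 and 4.87 CPM in those under shear stress. The groups did not overlap, and the log2 fold change of 1.98 ± 0.31, or 3.94-fold (adjusted p = 0.000847), was the greatest of the 40 members in the edgeR fit. On the log2(FPKM + 1) scale, which understates changes of low genes, it was 1.12, and Rars2 had the greatest value (1.56).

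Mars2 (Entrez 212679, chr1:55237177-55240058), the mitochondrial methionine enzyme, stood at 2.09, 3.03, 1.89 and 1.8 CPM in the static libraries and at 3.01, 3.91, 5.6 and 4.87 CPM in those under shear stress. The groups overlapped by a narrow margin, at static replicate 2 and shear stress replicate 1, and the log2 fold change was 0.97 ± 0.26 (adjusted p = 0.0132). Tars2, the mitochondrial threonine enzyme, is named after its values were seen: it went from 30.3 ± 2.55 to 38 ± 2.23 CPM (SD, n = 4; log2 fold change 0.33 ± 0.10, adjusted p = 0.0222, and 0.063 without shear stress replicate 2).

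Fars2 (Entrez 69955, chr13:36117428-36537595), the mitochondrial phenylalanine enzyme, fell. It stood at 30.9, 30.8, 36.2 and 34.3 CPM in the static libraries and at 27.4, 25.2, 21.6 and 24.5 CPM in those under shear stress. The groups did not overlap. Its log2 fold change was -0.42 ± 0.11 (adjusted p = 0.0108), -0.19 with library totals (adjusted p = 0.199), and it was not called with upper quartile factors (0.0602). Fars2 overlaps Nrn1 over 920 bases and Lyrm4 over 115 bases, both on the other strand. Neither neighbour was called (log2 fold changes 0.36 ± 0.2 and 0.02 ± 0.11). Cars2, the mitochondrial cysteine enzyme, also named after its values were seen, went from 9.89 ± 1.66 to 7.19 ± 0.819 CPM (SD, n = 4; log2 fold change -0.46 ± 0.16, adjusted p = 0.0421). Its call was lost with library totals (adjusted p = 0.31) and when any library other than static replicate 3 or 4 was left out (between 0.0662 and 0.102). Cars2 overlaps Naxd on the other strand over 984 bases, and Naxd was not called (log2 fold change -0.08 ± 0.13).

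The 9 mitochondrial enzymes that were not called ranged from -0.13 (Nars2) to 0.41 (Wars2), 6 of them above 0, with standard errors between 0.08 and 0.21 and adjusted p between 0.0677 and 0.988. Wars2 was called higher with the replicate block (adjusted p = 0.0382). Iars2 (Entrez 381314, chr1:185286642-185329419), the isoleucine enzyme and the most abundant mitochondrial member by TPM, stood at 102, 99.5, 103 and 103 CPM in the static libraries and at 97.1, 103, 108 and 95.0 CPM in those under shear stress. Its groups overlapped throughout, and its log2 fold change of -0.01 ± 0.08 (adjusted p = 0.892) turned to 0.21 with library totals. Iars2 overlaps Rab3gap2 on the other strand over 2034 bases, and Rab3gap2 was lower (log2 fold change -0.52 ± 0.12).

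Per length, the cytosolic enzymes were the more abundant class. Mean TPM over the 8 libraries ran from 6.64 (Tarsl2) to 265 (Nars) with a median of 70.0 for cytosolic enzymes, and from 1.72 (Pars2) to 40.1 (Iars2) with a median of 7.38 for mitochondrial enzymes. Summed over the class, cytosolic enzymes came to 1635 ± 84.2 TPM in static and 1840 ± 49.4 TPM in shear stress libraries, and mitochondrial enzymes to 157 ± 10.9 and 201 ± 13.8 TPM (SD, n = 4). TPM has a fixed total per library, as library totals do, so these sums sit on the scale on which the median of all genes was also higher. The mitochondrial sum was 9.05%, 9.87%, 9.81% and 9.65% of the cytosolic sum in static replicates 1 to 4 and 10.8%, 11.6%, 11.1% and 10.3% in shear stress replicates 1 to 4. This ratio within a library does not depend on the scaling between libraries, and all 4 shear stress values lay above the static ones. The log2 ratio of cytosolic to mitochondrial sum went from 3.38 ± 0.058 to 3.19 ± 0.074 (SD, n = 4), a difference of -0.19.

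**Figure D3:**
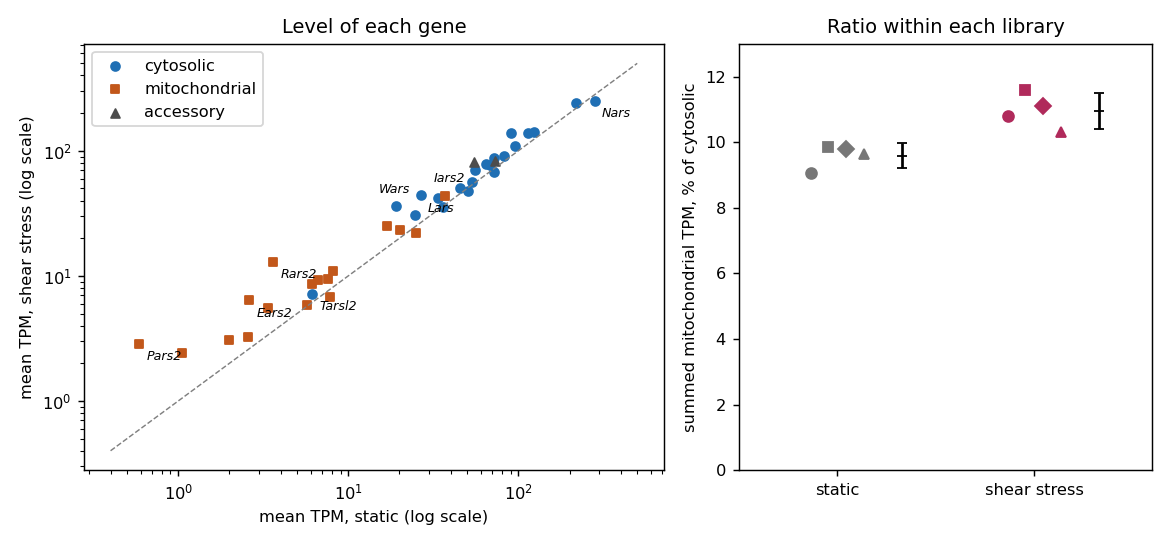
Left, mean TPM of each gene in static (x axis) and shear stress (y axis) libraries on log scales, with circles for cytosolic enzymes, squares for mitochondrial enzymes, triangles for accessory proteins and a dashed line of equal level; right, summed mitochondrial TPM as a percentage of summed cytosolic TPM in each library, with the mean and SD of 4. Mitochondrial members lie at the low end, Pars2, Rars2 and Ears2 lie farthest above the line, and the 4 shear stress ratios (10.3% to 11.6%) are above the 4 static ratios (9.05% to 9.87%).

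For 17 amino acids a cytosolic and a mitochondrial enzyme could be set side by side, with Eprs standing for both glutamate and proline and Farsa for phenylalanine. The mitochondrial enzyme had the more positive log2 fold change in 11 pairs and the cytosolic enzyme in 6, with a median difference of 0.26. The TPM ratio of mitochondrial to cytosolic enzyme was higher under shear stress without overlap for 5 amino acids (among them arginine, glutamate, proline and valine), lower without overlap for 3 (cysteine, leucine and phenylalanine), and overlapped for 9. No share without overlap was computed for ratios of other gene pairs. For the normalised CPM of single genes it was 45.3% over all tested genes. Pars2 went from 1.12% ± 0.572 to 5.06% ± 0.89 of the TPM of Eprs (SD, n = 4). Ears2 went from 4.95% ± 1.45 to 11.3% ± 0.433 of the TPM of the same gene. Neither ratio overlapped between the groups. Rars2 went from 3.94% ± 1.1 to 9.4% ± 1.07 of the TPM of Rars, although Rars was itself called higher. The phenylalanine pair went the other way: Fars2 was level with Farsa in static libraries, at 102% ± 10.6, and stood at 72.3% ± 4.1 of it under shear stress. These percentages depend on the subunit chosen. Farsb, the other subunit, had 33.9 TPM in static and 42.0 TPM in shear stress libraries, beside 24.8 and 30.5 TPM for Farsa. For valine, Vars2 went from 13.2% ± 2.17 to 19.5% ± 1.06 of Vars, with Vars called lower and Vars2 not called. The ratio of the tryptophan pair overlapped between the groups, with log2 fold changes of 0.79 for Wars and 0.41 for Wars2.

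**Figure D4:**
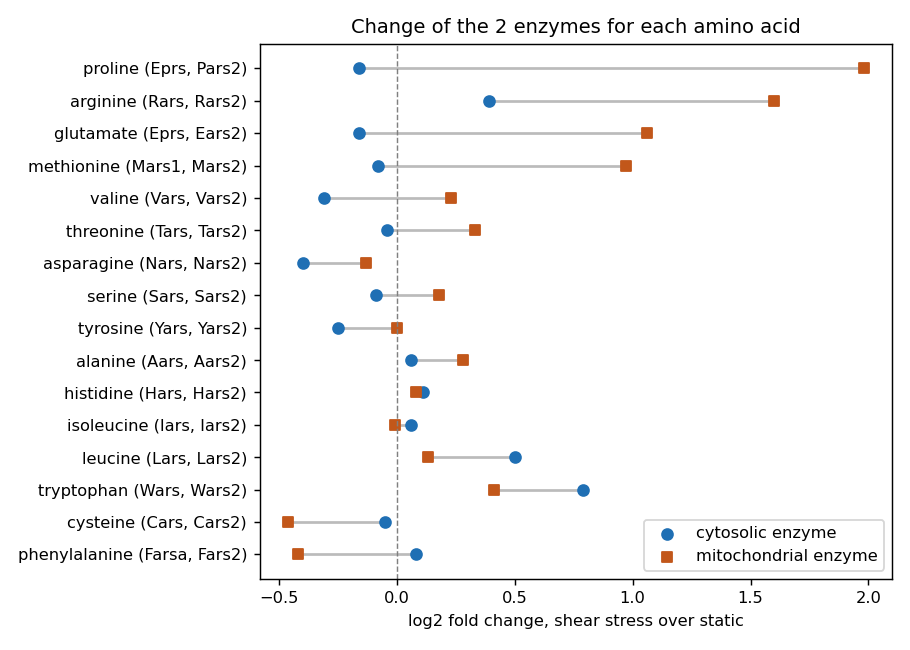
Log2 fold change of shear stress over static (x axis) of the cytosolic (blue circle) and mitochondrial (orange square) enzyme for 16 of the 17 amino acids, ordered by their difference. The square lies to the right in 10 rows, most for proline (1.98 against -0.16), and to the left in 6, most for phenylalanine (-0.42 against 0.08).

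Promoter sequence was examined from 250 bases before to 50 bases after the start given in a RefSeq table (GRCm38.p6), which held 30 of the 40 members. Wars, Lars, Hars, Nars, Cars, Vars, Rars, Hars2 and Pars2 are among those with no entry. The C/EBP-ATF response element, the motif through which ATF4 acts, was searched as TGATGNAA on both strands. It was found in 5 of 14 cytosolic genes (Aars, Gars, Iars, Tars and Yars), in 0 of 14 mitochondrial genes and in 3.97% of all 32851 promoters in the table. The stretches of 4 of them are shown, chosen after the values were seen, because none of these 5 genes was called. Each is read 5′ to 3′ on the strand of the gene, with the match in capitals (matches on the opposite strand read as the reverse complement):
Gars: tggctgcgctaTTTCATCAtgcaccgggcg
Iars: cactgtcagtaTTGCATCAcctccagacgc
Tars: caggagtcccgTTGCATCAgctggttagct
Yars: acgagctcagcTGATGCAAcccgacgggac
These lie at chr6:55037960-55037989 (plus strand), chr13:49682126-49682155 (plus), chr15:11399655-11399684 (minus) and chr4:129189895-129189924 (plus). Aars, Gars, Iars, Tars and Yars had log2 fold changes of 0.06, -0.09, 0.06, -0.04 and -0.25.

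The NRF1 motif, bound by nuclear respiratory factor 1, a regulator of nuclear genes for mitochondrial proteins, was searched as GCGCATGC on both strands. It was found in 3 of 14 mitochondrial genes (Rars2, Vars2 and Wars2), in 0 of 14 cytosolic genes and in 2.71% of all promoters. Rars2 is shown with the 100 bases before its start because it is the 1 called gene with a match, and Wars2 with 30 bases, the match again in capitals:
Rars2: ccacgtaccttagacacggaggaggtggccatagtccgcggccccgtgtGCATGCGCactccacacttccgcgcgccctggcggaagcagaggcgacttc
Wars2: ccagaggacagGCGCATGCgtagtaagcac
They lie at chr4:34614857-34614956 and chr3:99141015-99141044, both on the plus strand, and the start used for Wars2 lies within the span annotated for the gene. Of these 3 genes Rars2 was higher, and Vars2 and Wars2 were not called (log2 fold changes 0.23 and 0.41). The E-box CACGTG, bound by factors of the MYC and TFE families, was found in Farsb, Aars, Iars and Tars among the cytosolic genes, in Ears2 among the mitochondrial genes and in 7.15% of all promoters. A match is a description of the letters only.

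Atf4, the transcription factor of the amino acid response, fell. Atf4 stood at 504, 437, 409 and 405 CPM in the static libraries and at 355, 296, 328 and 337 CPM in those under shear stress, without overlap. Its log2 fold change was -0.41 ± 0.10 (adjusted p = 0.00808), and -0.19 with library totals (adjusted p = 0.159). Among 33 tested genes of the amino acid response and ATF4 targets 5 were higher and 13 lower (median log2 fold change -0.18), so 54.5% were called, near the 48.6% of all tested genes. With library totals 8 were higher and 10 lower (median 0.04), beside 35.4% and 13.1% of all tested genes (median 0.22). The strongest call was Slc38a2, an ATF4-dependent neutral amino acid transporter, which fell from 1350 ± 52.1 to 178 ± 11.5 CPM (SD, n = 4; log2 fold change -2.92 ± 0.09). Ppp1r15a, which recruits the phosphatase of eIF2α, was lower (-1.86 ± 0.24), while Trib3, a pseudokinase induced by ATF4, and Ddit4, an inhibitor of mTORC1, were higher (1.33 ± 0.15 and 1.05 ± 0.11). With the replicate block 8 of these genes were higher and 16 lower, beside 30.1% and 31.0% of all tested genes.

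Among 16 tested genes of the eIF2α kinases and the control of the integrated stress response 2 were higher and 4 lower (median -0.02). The share called was 37.5%, beside 48.6% of all tested genes. Eif2ak3 (the endoplasmic reticulum kinase PERK) was lower, at -1.80 ± 0.21, as was Ppp1r15b, at -0.58 ± 0.09, and Eif2b3, a subunit of the exchange factor eIF2B, was higher, at 0.59 ± 0.13. With library totals 3 of these 16 were higher and 2 lower (median 0.21), beside 35.4% and 13.1% of all tested genes (median 0.22). Only 1 was higher when static replicate 1, 3 or 4 or when replicate 2 or 3 under shear stress was left out. Among 12 tested genes listed with the cytosolic elongation and termination factors 2 were higher and 3 lower (median -0.06), so 41.7% were called. The 2 higher were Eef1e1, the scaffold described above, and Eef2k, the kinase that inhibits elongation factor 2 (1.56 ± 0.23). No elongation or termination factor proper was called higher. Elongation factor 2 itself, Eef2, and the release factor Etf1 were lower (-0.47 ± 0.09 each). With library totals 4 of these 12 were higher and 1 lower, beside the same 35.4% and 13.1% of all tested genes.

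Among 15 tested mitochondrial translation factors 3 were higher and 1 lower, so 26.7% were called, beside 48.6% of all tested genes. Their median of 0.18 lay near the 0.23 of the mitochondrial synthetases. The release factor Mtrf1 (0.97 ± 0.22), Qrsl1, a subunit of the amidotransferase that turns glutamyl-tRNA into glutaminyl-tRNA (1.0 ± 0.23), and the initiation factor Mtif2 (0.53 ± 0.14) were higher. Gatb and Gatc, the other subunits of that enzyme, were not called (-0.14 and 0.12). Tufm, the elongation factor, was lower (-0.24 ± 0.09, adjusted p = 0.0416), a call lost when any library other than static replicate 2 was left out (adjusted p between 0.0504 and 0.107). With library totals 9 of these factors were higher and 0 lower (median 0.4), beside 35.4% and 13.1% of all tested genes (median 0.22).

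The lists of genes that make and modify tRNAs held more calls upward than downward. Over all tested genes 48.6% were called, 24.9% higher and 23.7% lower. Among 50 tested genes of tRNA processing, modification and export 28 were higher and 5 lower (median 0.46), so 66.0% were called. They included Rpp38, a subunit of the tRNA-cutting ribonuclease P (2.47 ± 0.15), Trmt5, which methylates tRNA beside the anticodon (2.10 ± 0.17), and Mettl1, another tRNA methyltransferase (1.28 ± 0.15). The count of lower genes in this list was 1 with library totals, where 13.1% of all tested genes were lower. With 1 library left out it ran from 2 to 7. It was 2 without shear stress replicate 1 and 3 without static replicate 3 or any other shear stress library. With the replicate block 30 genes of this list were higher and 6 lower, beside 30.1% and 31.0% of all tested genes. Of 10 genes of tRNA editing, deacylation and selenocysteine formation 8 were higher and 0 lower (median 0.63), so 80.0% were called. Among the higher were Pstk and Sepsecs, which make selenocysteine on its tRNA (1.05 ± 0.12 and 0.74 ± 0.11), and the peptidyl-tRNA hydrolase Ptrh2 (0.98 ± 0.12). Without shear stress replicate 4 this count of higher genes was 5, and without static replicate 2 there was 1 lower gene. Among 24 genes of RNA polymerase III, which transcribes tRNA genes, and its control 11 were higher and 2 lower (median 0.21). The share called, 54.2%, was near that of all tested genes. The subunit Polr3d (1.37 ± 0.13) and the initiation factors Brf2 (1.37 ± 0.19) and Gtf3c5 (0.88 ± 0.13) were higher, and Maf1, the repressor of this polymerase, was lower (-0.93 ± 0.12). The initiation factors Brf1 and Bdp1 were not called (-0.25 and -0.01). With the replicate block 5 genes of this list were lower, with library totals 1, and 1 also when static replicate 2 or when replicate 1, 3 or 4 under shear stress was left out. The difference between these lists and the synthetases was not tested.

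**Figure D5:**
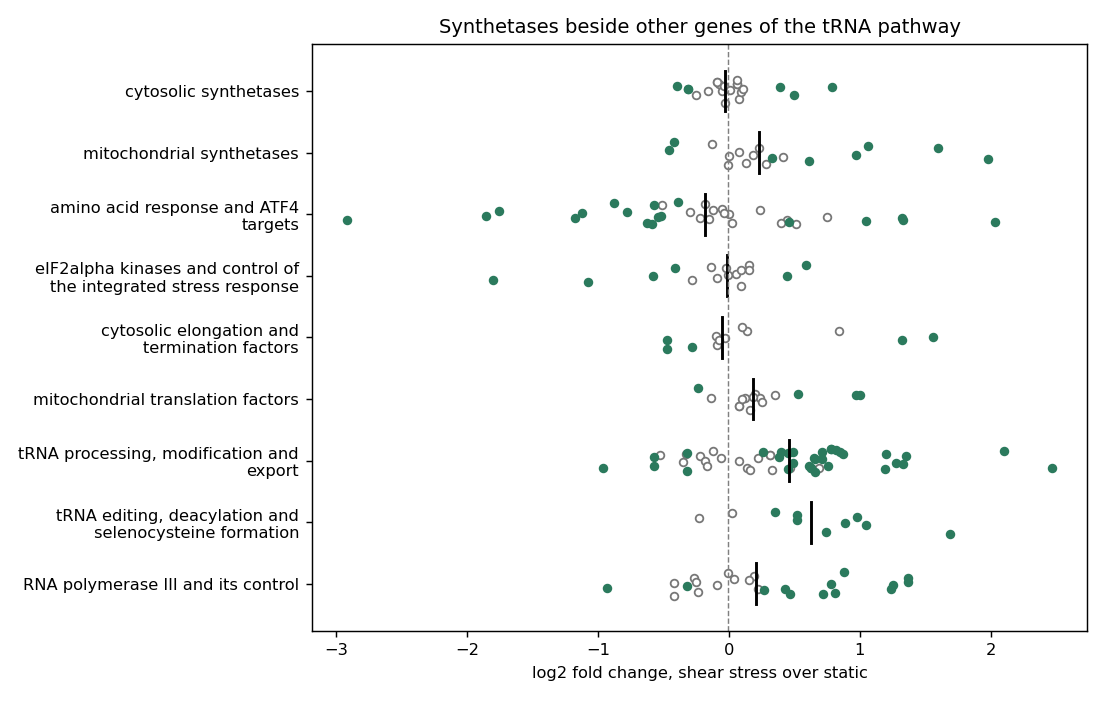
Log2 fold change of shear stress over static (x axis) for the cytosolic and mitochondrial synthetases and 7 lists of genes that work with them, with 1 point per tested gene, filled where called, and a black bar at the median. Medians lie between -0.18 (amino acid response and ATF4 targets) and 0.63 (tRNA editing, deacylation and selenocysteine formation), under TMM scaling. With library totals all these medians were above 0, as was that of all tested genes (0.22).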

How the data were processed

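The 8 libraries were grouped by sample title. Per the submitters' processing notes the authors used HISAT, Bowtie2 and RSEM with GRCm38 (mm10); their versions, the annotation and any use of strand are not given in the sources. RSEM divides reads that match several genes by estimated probability, so values of near-identical or overlapping genes are uncertain. Per the file headers, the deposited files give a read count, TPM and FPKM for each gene. The read counts are expected counts estimated by the authors, of which 9.31% to 10.7% per library were not whole (tolerance 1e-09); they were rounded. The deposited TPM served for levels between genes, and the deposited FPKM for 1 alternative, log2(FPKM + 1) in limma 3.58.1 with FPKM of at least 1 in 4 libraries.

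Genes were filtered with filterByExpr (11747 of 17276 kept), scaled with TMM and tested by quasi-likelihood in edgeR 4.0.16 (R 4.3.3), with group as the only term, Benjamini-Hochberg adjusted over all tested genes. Each standard error was obtained as log2 fold change over root F. Alternatives were the replicate block, DESeq2 1.42.0, upper quartile factors, library totals, no filter and each library left out. The procedure was also run on simulated counts with few changed genes and no effect of replicate number. These data differ in both respects, so that run does not test the procedure under their conditions.

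Both groups carry replicate numbers 1 to 4. After removal of group means, same-numbered libraries correlated at r = 0.679, 0.642, 0.56 and 0.467 over 8446 genes, and no pair of different numbers above -0.0178. Removal of group means by itself pushes pairs of different numbers below 0 once same-numbered pairs lie above it, so their sign adds little. Because same-numbered libraries correlated, a blocked value is given for each member whose call it alters and each list whose counts it alters. No label explains the numbers, and the main test has no block. The biological coefficient of variation fell from 0.214 to 0.125 when the block was added. Within groups the lowest chi-square per degree of freedom was 45.8, so each library counted as a sample. Libraries held 15067056 to 17935566 counts, and the standard errors include the spread between libraries.

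Values in all libraries are given for called cytosolic enzymes (up to 8 by p), called mitochondrial enzymes (up to 6), Aimp1, Aimp2, Eef1e1, Atf4 and the most abundant uncalled member of each class, and up to 4 called genes per list. Some genes that this rule names are not reported here. Members and lists were chosen with earlier results of these data known. Coordinates (all 40 members matched) and promoter sequences (30 matched) are from RefSeq tables of GRCm38.p6, and strands from GENCODE models of that build.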

Additional observations from a re-analysis of the deposited data

Results flagged for a closer look

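Farsa, the alpha subunit of the cytosolic phenylalanine enzyme, was flagged for 1 library far from the others of its group. Shear stress replicate 3 held 29.7 CPM, and the other 3 shear stress libraries held 33.7 to 34.4 CPM. The gap was 0.859 of the group's range, above the critical value of Dixon's test. In all 80 groups of 4 were tested over the 40 members, 1 was flagged, and chance flags about 1 in 20. Farsa was not called (log2 fold change 0.08 ± 0.10, adjusted p = 0.552).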

How the results depend on the processing

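Scaling moved the synthetases most. With upper quartile factors 4 cytosolic enzymes were higher and 1 lower (median log2 fold change 0.11) and 8 mitochondrial enzymes higher and 0 lower (median 0.37). With library totals these were 7 and 0 (0.20) and 10 and 0 (0.46), and with log2 FPKM 7 and 0 (0.18) and 10 and 0 (0.41). The median of all tested genes moved as well, to 0.13, 0.22 and 0.18 in that order. Without the filter 1 mitochondrial enzyme was lower. DESeq2 gave the same counts as edgeR in both classes. With the replicate block 7176 genes were called, with 3 cytosolic enzymes higher and 4 lower and 7 mitochondrial higher and 2 lower; it changed no member's call other than those of Yars and Wars2. Log2 fold changes turned with upper quartile factors, library totals and FPKM for Aimp1 (0.10, 0.19 and 0.18), Gars (0.04, 0.13 and 0.14) and Iars2 (0.12, 0.21 and 0.21), with library totals for Eprs, Cars, Kars, Mars1, Sars, Tars and Nars2 (0.07 to 0.20), and also for Aimp1 without static replicate 1 (0.03) or shear stress replicate 3 (0.03; range over libraries left out -0.09 to 0.03) and Iars2 without shear stress replicate 1 (0.03) or 4 (0.02; range -0.05 to 0.03). With 1 library left out, between 4660 and 5518 genes were called, 2 to 3 cytosolic enzymes higher and 1 to 3 lower, and 5 to 7 mitochondrial higher and 1 to 2 lower, with medians of -0.03 to 0.01 and 0.19 to 0.27. The log2 ratio of cytosolic to mitochondrial TPM changed by -0.22 to -0.16 with 1 library left out, -0.23 from CPM, -0.18 without Kars and Gars, and -0.40 as a mean of log2 TPM, which gives low genes equal weight. Of the values of named genes under alternatives, 201 kept direction and side of the threshold, 38 lost the call and 13 turned.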

Other observations

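Since same-numbered libraries deviated together, each member was also read as 4 ratios of shear stress over static, 1 per replicate number. All 4 ratios were above 1 for 4 cytosolic enzymes (Hars, Lars, Rars and Wars), 7 mitochondrial enzymes (among them Ears2, Mars2, Pars2, Rars2, Tars2 and Wars2) and Aimp2, and all 4 were below 1 for 5 cytosolic enzymes (Eprs, Nars, Qars, Vars and Yars) and 2 mitochondrial enzymes (Cars2 and Fars2). Over all tested genes 33.7% were higher and 35.2% lower in all 4 numbers. Hars, Wars2, Eprs and Yars are in this count without being called. The log2 ratios of Rars, whose groups overlapped, were 0.24, 0.33, 0.52 and 0.49, and those of Aimp2 were 0.41, 0.33, 0.21 and 0.39. Those of Wars2 were 0.03, 0.52, 0.51 and 0.68, with number 1 near 0, and those of Hars were 0.16, 0.16, 0.01 and 0.12, with number 3 near 0.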
